A study of Danio rerio with 12 samples.

Results

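The genes of NAD salvage and the sirtuins, which use NAD, were followed in the eyes of adult zebrafish with and without akr7a3. They were taken by symbol: 10 names were looked up among the 25432 genes listed for these eyes, and 9 were found (nampta, namptb, nmnat1, nmnat2, sirt1, sirt2, sirt3, sirt5 and sirt6). The name nmnat3 is listed only in capitals, as NMNAT3, and its values are given beside the 9 genes without entering their counts. RNA was sequenced from 6 akr7a3-/- eyes and 6 akr7a3+/+ eyes. Akr7a3 is an aldo-keto reductase, an enzyme that reduces reactive aldehydes. The akr7a3-/- animals came from 1 line made with CRISPR/Cas9 in Tg(fli1:EGFP) fish, the background the series gives for its experiments, in which green fluorescent protein marks blood vessels. They carry an insertion in exon 1 that creates an early stop codon. The study used the eyes to ask how gene expression changes when akr7a3 is lost. The labels give no age or sex and do not say whether each eye came from a separate animal, so the p-values below measure the spread between these eyes.

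NAD carries electrons in metabolism and is also a substrate that several enzymes break down, releasing nicotinamide. In the salvage route, nicotinamide phosphoribosyltransferase (Nampt) turns nicotinamide into nicotinamide mononucleotide, and nicotinamide mononucleotide adenylyl transferases (Nmnat) complete it to NAD. Sirtuins use NAD to remove acetyl and other acyl groups from proteins. In mammals, Nampt transcription is driven by the circadian clock, and SIRT1 acts back on clock proteins. The retina depends on this route, and loss of NMNAT1 function in humans is a cause of inherited retinal degeneration.

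Expression is given in FPKM, the fragments on a gene scaled to its length and to the fragments of the whole library. The total reads, worked out from the FPKM values, ran from 22237970 to 35016388 in akr7a3-/- eyes and from 21194609 to 34935342 in akr7a3+/+ eyes. The targeted gene, akr7a3 (ENSDARG00000016649), had 0.267 to 0.414 FPKM in akr7a3-/- eyes and 1.35 to 2.65 FPKM in akr7a3+/+ eyes. With means given throughout ± SD over the 6 eyes of a genotype, akr7a3 averaged 0.348 ± 0.0621 FPKM in akr7a3-/- eyes and 2.05 ± 0.541 FPKM in akr7a3+/+ eyes, and the genotypes did not overlap. The log2 fold change of akr7a3, here and below of akr7a3-/- over akr7a3+/+ on the scale of log2(FPKM + 0.5), was -1.56 with a standard error of 0.140. It depends on the added 0.5 FPKM: akr7a3 had -2.23 with 0.1 FPKM added, -1.16 with 1 FPKM added and -2.55 by limma's voom on reads. The adjusted p of akr7a3 was 2.66e-05 (limma, with Benjamini-Hochberg adjustment over all 18473 genes tested), so the libraries match their labels. Adding 0.5 FPKM makes the fold changes of weakly expressed genes smaller than those of their FPKM.

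None of the NAD salvage and sirtuin genes changed beyond the test's threshold in akr7a3-/- eyes. A gene was called changed at an adjusted p under 0.05, which 2133 of the 18473 genes tested passed (11.5%), 1068 of them higher and 1065 lower in akr7a3-/- eyes. All 9 genes passed the filter on low values, and 0 of the 9 were called by limma, against that background of 11.5%. Limma's voom on reads worked out from the FPKM values also called 0 of the 9, where it called 2119 of 18460 genes (11.5%). At an unadjusted p under 0.05, 1 of the 9 passed in limma, sirt5, where 26.2% of all genes tested passed, and voom gave the same single gene. None of the 9 had genotypes that did not overlap, where 6.62% of all genes tested did. The log2 fold changes were above 0 in 4 genes and below 0 in 5, with a median of -0.061, beside -0.0080 over all genes tested. Their median size without regard to sign was 0.11 on the log2 scale, beside 0.15 over all genes tested.

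The intervals set the size of difference that these eyes leave room for. The 95% interval of the fold change lay within 1.5-fold of no difference, on the log2(FPKM + 0.5) scale, for all 9 genes. Of all genes tested, 71.6% had an interval within 1.5-fold. The widest bound among the 9 genes was 1.46-fold, for nmnat1, whose low level makes this scale narrow its interval. These are whole eyes, in which fewer cells of a type and less RNA per cell cannot be told apart.

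**Figure D1:**
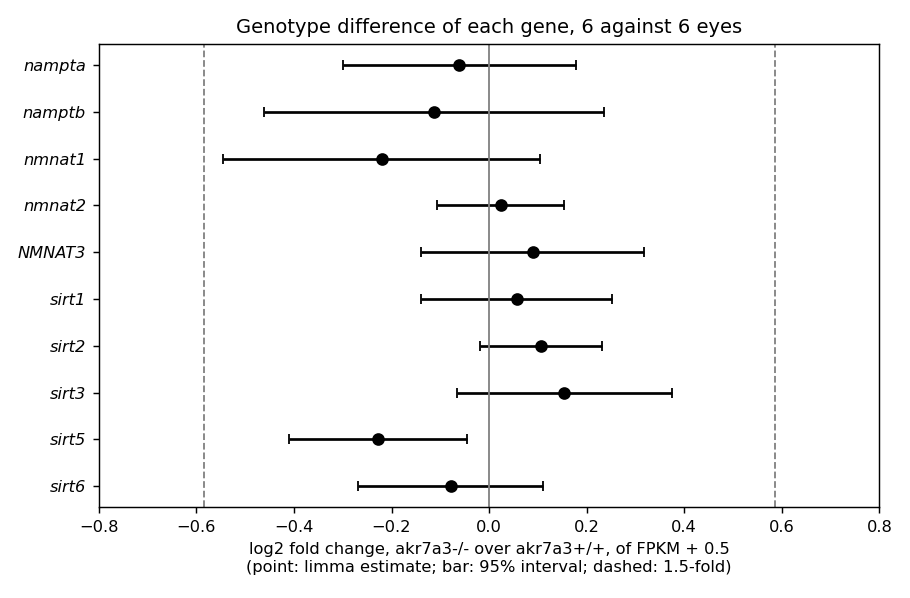
Log2 fold change of each gene between 6 akr7a3-/- and 6 akr7a3+/+ eyes (x axis, log2 scale of FPKM + 0.5; point, limma estimate; bar, 95% interval; dashed lines, 1.5-fold; one gene per line). Every interval lies between the dashed lines, and only that of sirt5, from -0.41 to -0.046, does not include 0.

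Nampt makes the step that sets the pace of salvage in mammals, and the table holds 2 expressed copies of its gene. In akr7a3-/- eyes, nampta (ENSDARG00000030598) had a lowest value of 19.9, a median of 22.5 and a highest value of 28.7 FPKM, against 19.0, 24.8 and 28.2 FPKM in akr7a3+/+ eyes. The ranges almost coincided. The means were 23.2 ± 3.08 FPKM in akr7a3-/- eyes and 24.3 ± 3.72 FPKM in akr7a3+/+ eyes. Between the genotypes nampta differed by -0.061 on the log2 scale (95% interval -0.30 to 0.18), with an adjusted p of 0.780 by limma.

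The other copy, namptb (ENSDARG00000027183), lay between 8.33 and 11.0 FPKM in akr7a3-/- eyes, with a median of 10.1 FPKM, against 8.10 to 16.9 FPKM with a median of 9.93 FPKM in akr7a3+/+ eyes. The akr7a3+/+ eyes spread more widely: eyes 1 and 4, at 16.9 and 13.7 FPKM, lay well above every akr7a3-/- eye, and eye 6 only just. The means of namptb were 9.97 ± 1.01 FPKM in akr7a3-/- eyes and 11.2 ± 3.49 FPKM in akr7a3+/+ eyes. The log2 fold change was -0.11 (95% interval -0.46 to 0.23), with an adjusted p of 0.709 by limma, and without akr7a3+/+ eye 1 it was 0.012. The medians and means of namptb therefore stood in opposite order. In the RefSeq gene table of the assembly GRCz12tu, where it is called nampt2, namptb is on the chromosome of akr7a3. The copy nampta could not be matched there, so its chromosome was not compared. The other genes of the set were matched and are not on that chromosome. A row named "NAMPT (1 of many)" (ENSDARG00000076694) had 0 or 1 read in every eye and was not tested.

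**Figure D2:**
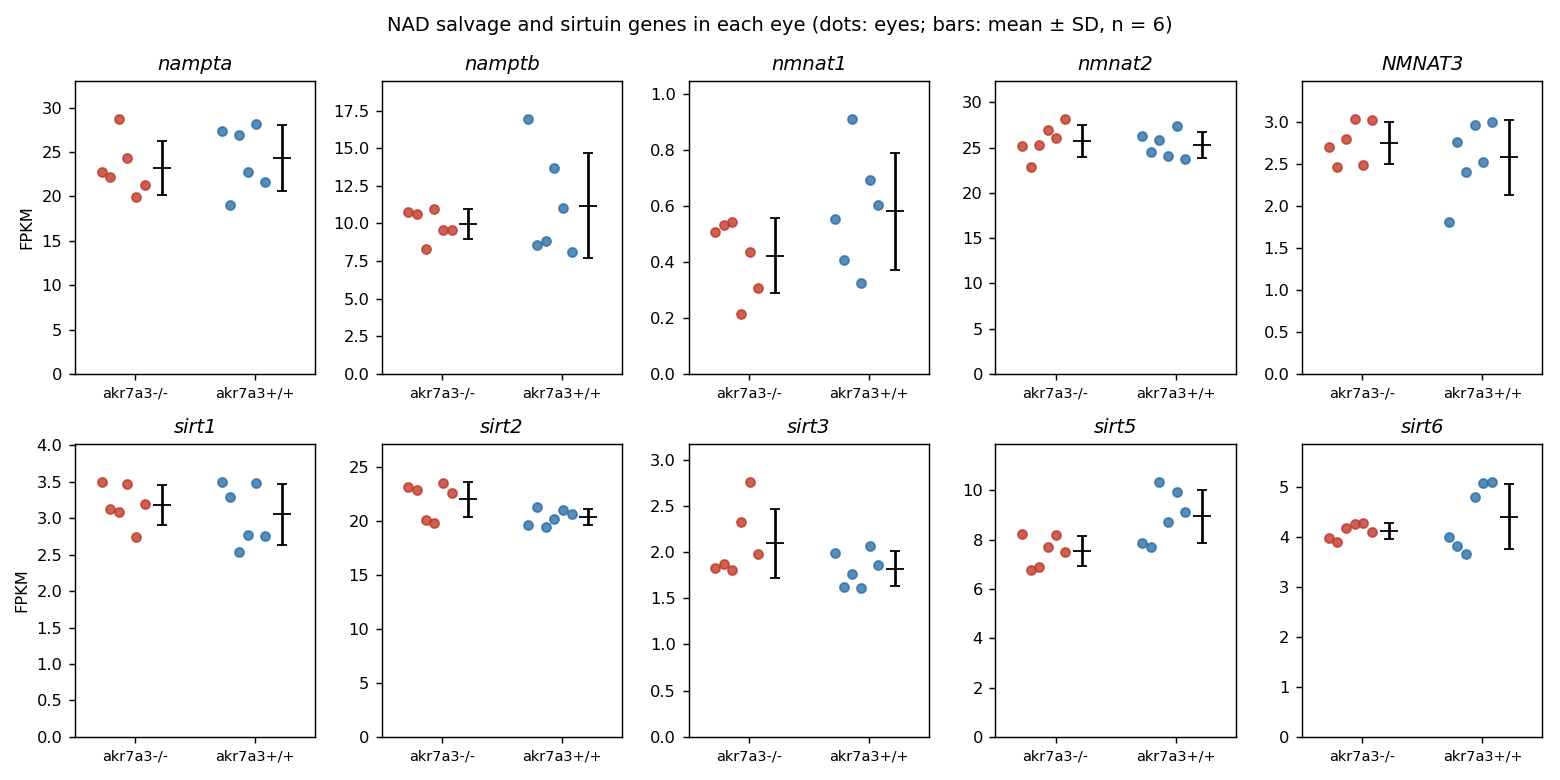
FPKM (y axis, linear, from 0) of the 9 genes and NMNAT3 in each akr7a3-/- eye (red, left) and akr7a3+/+ eye (blue, right), with the mean and SD of 6 eyes as bars. The genotypes overlap in every panel, and in the panel of sirt5, 4 of the 6 akr7a3+/+ eyes lie above every akr7a3-/- eye.

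Since FPKM is scaled to length, the 2 nampt copies were set against each other within an eye. How reads shared by the 2 copies were counted is not given in the sources used here, and this limits the comparison. Of the FPKM of nampta and namptb together, nampta took 67.5% to 77.5% in akr7a3-/- eyes and 61.8% to 75.2% in akr7a3+/+ eyes. The mean share of nampta was 69.7 ± 3.85% in akr7a3-/- eyes and 68.9 ± 5.59% in akr7a3+/+ eyes. Thus nampta was the more abundant copy in all 12 eyes, by 2.08- to 3.44-fold in akr7a3-/- eyes and by 1.62- to 3.04-fold in akr7a3+/+ eyes. In akr7a3-/- eyes the other 5 shares lay between 67.5% and 69.0%, and eye 5, at 77.5%, stood apart with both the highest nampta and the lowest namptb of its genotype. The sum of both copies ran from 29.4 to 37.0 FPKM in akr7a3-/- eyes and from 27.5 to 44.2 FPKM in akr7a3+/+ eyes. The log2 difference between the copies, nampta minus namptb, averaged 1.17 ± 0.27 in akr7a3-/- eyes and 1.12 ± 0.36 in akr7a3+/+ eyes, a difference of 0.053 (two-sided exact permutation test, p = 0.773, n = 6 each, where the smallest p possible is 0.00216).

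**Figure D3:**
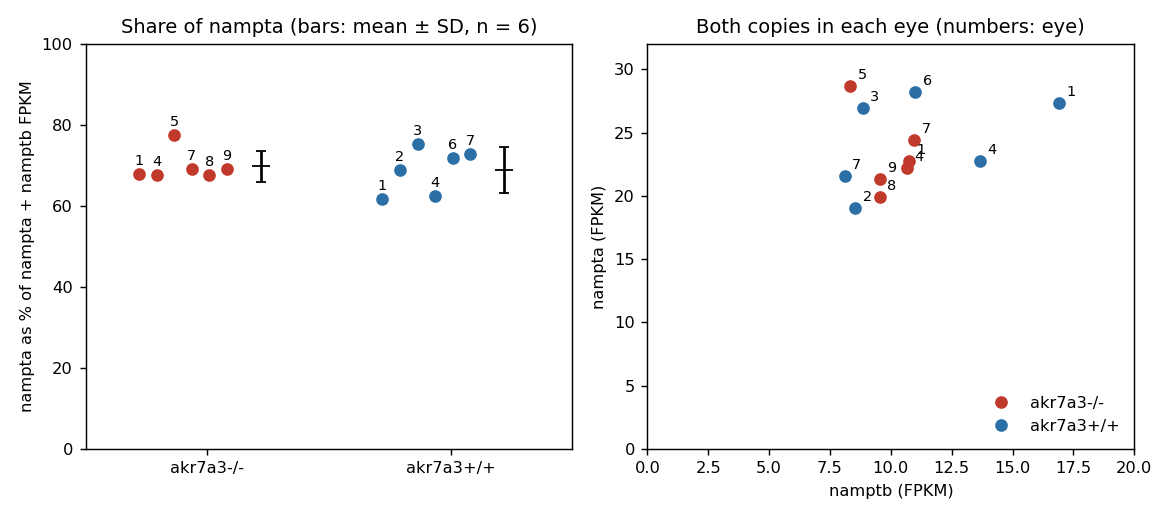
Left, share of nampta in the FPKM of both nampt copies (y axis, percent) in each akr7a3-/- eye (red) and akr7a3+/+ eye (blue), with mean and SD of 6 eyes; right, nampta against namptb in each eye (both axes in FPKM, numbers are the eyes). The share lies between 61.8% and 77.5% in all 12 eyes, with akr7a3-/- eye 5 highest, and akr7a3+/+ eye 1 has the most namptb at 16.9 FPKM.

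The Nmnat enzymes differ in where they act in mammals: NMNAT1 in the nucleus, NMNAT2 on the Golgi and in axons, and NMNAT3 in mitochondria. Their genes differed far more from each other than between genotypes. The gene nmnat2 (ENSDARG00000004580), which protects axons from degeneration in mice, had 22.8, 25.7 and 28.1 FPKM as its lowest, median and highest value in akr7a3-/- eyes, against 23.8, 25.1 and 27.4 FPKM in akr7a3+/+ eyes. The akr7a3+/+ range lay inside that of the akr7a3-/- eyes. The means of nmnat2 were 25.7 ± 1.79 FPKM in akr7a3-/- eyes and 25.3 ± 1.45 FPKM in akr7a3+/+ eyes. Its log2 fold change of 0.023 was among the most tightly bounded of the set, with a 95% interval of -0.11 to 0.15 and an adjusted p of 0.850 by limma.

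The nuclear enzyme's gene nmnat1 (ENSDARG00000105748) was the least abundant of the set. It had 0.214, 0.471 and 0.542 FPKM as its lowest, median and highest value in akr7a3-/- eyes, against 0.325, 0.578 and 0.910 FPKM in akr7a3+/+ eyes. The genotypes overlapped, and 4 akr7a3+/+ eyes lay above every akr7a3-/- eye, while 2 akr7a3-/- eyes lay below every akr7a3+/+ eye. These values rest on 9 to 19 reads per akr7a3-/- eye and 10 to 24 reads per akr7a3+/+ eye, and 7 of the 12 eyes reached the filter's 0.5 FPKM, where 6 were needed. The means were 0.423 ± 0.135 FPKM in akr7a3-/- eyes and 0.582 ± 0.209 FPKM in akr7a3+/+ eyes. The log2 difference of nmnat1 was -0.22 (95% interval -0.55 to 0.11), with an adjusted p of 0.389 by limma. On the reads themselves, voom gave a log2 fold change of -0.47 for nmnat1 with a 95% interval of -1.13 to 0.19. No difference of nmnat1 was detected, and the interval from the reads leaves room for a lower level well beyond 1.5-fold. A read-through row that joins nmnat1 to rbp7a was listed at 0 in every eye. How reads shared by nmnat1 and this row were counted is not given in the sources used here. This limits what the listed level of nmnat1 can say about its abundance.

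The mitochondrial enzyme's gene NMNAT3 (ENSDARG00000077034) had 2.46 to 3.04 FPKM in akr7a3-/- eyes, with a median of 2.75 FPKM, against 1.81 to 3.00 FPKM with a median of 2.65 FPKM in akr7a3+/+ eyes. Only akr7a3+/+ eyes 1 and 3 lay below every akr7a3-/- eye. The log2 fold change of NMNAT3 was 0.089 (95% interval -0.14 to 0.32) and its adjusted p by limma was 0.646. Without akr7a3+/+ eye 1 the estimate was 0.0088.

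Among the sirtuins, the largest difference was in sirt5, which did not pass the adjusted threshold. SIRT5 is a mitochondrial enzyme in mammals that removes succinyl, malonyl and glutaryl groups. In akr7a3-/- eyes sirt5 (ENSDARG00000039684) had 8.24, 6.76, 6.91, 7.69, 8.18 and 7.48 FPKM in eyes 1, 4, 5, 7, 8 and 9, against 7.85, 7.69, 10.3, 8.72, 9.95 and 9.12 FPKM in akr7a3+/+ eyes 1, 2, 3, 4, 6 and 7. The genotypes overlapped through akr7a3+/+ eyes 1 and 2, while the other 4 akr7a3+/+ eyes lay above every akr7a3-/- eye. The means were 7.54 ± 0.623 FPKM in akr7a3-/- eyes and 8.94 ± 1.08 FPKM in akr7a3+/+ eyes. The log2 fold change of sirt5 was -0.23 with a standard error of 0.084, a fold of 0.854 (95% interval 0.753 to 0.969). Limma gave it an unadjusted p of 0.0180 and an adjusted p of 0.102, and voom an adjusted p of 0.128. Over all alternatives its adjusted p ran from 0.0652 to 0.609, with the log2 fold change below 0 in each.

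The other mitochondrial sirtuin of the set, sirt3 (ENSDARG00000035819), codes in mammals for the main deacetylase of mitochondrial proteins. It had 1.81 to 2.76 FPKM in akr7a3-/- eyes, with a median of 1.93 FPKM, against 1.61 to 2.07 FPKM with a median of 1.81 FPKM in akr7a3+/+ eyes. The akr7a3-/- eyes 7 and 8, at 2.32 and 2.76 FPKM, lay above every akr7a3+/+ eye, and akr7a3+/+ eyes 2, 3 and 4 lay below every akr7a3-/- eye. Limma estimated a log2 fold change of 0.15 for sirt3 (95% interval -0.067 to 0.37), with an adjusted p of 0.373. The 2 mitochondrial sirtuin genes thus had estimates on opposite sides of 0, and neither was called.

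In the cytoplasm, mammalian SIRT2 removes acetyl groups from tubulin and other proteins. The gene sirt2 (ENSDARG00000011488) was the most abundant sirtuin, at 19.8, 22.7 and 23.5 FPKM as its lowest, median and highest value in akr7a3-/- eyes, against 19.5, 20.4 and 21.3 FPKM in akr7a3+/+ eyes. In 4 of the 6 akr7a3-/- eyes sirt2 lay above every akr7a3+/+ eye, and eyes 5 and 7 lay within the akr7a3+/+ range. The means were 22.0 ± 1.62 FPKM in akr7a3-/- eyes and 20.4 ± 0.740 FPKM in akr7a3+/+ eyes. For sirt2 the log2 fold change was 0.11 (95% interval -0.018 to 0.23), with an adjusted p of 0.266 by limma.

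The nuclear sirtuins were both at a few FPKM. SIRT1 in mammals deacetylates histones, p53 and clock proteins, and sirt1 (ENSDARG00000068064) had 2.75 to 3.50 FPKM in akr7a3-/- eyes, with a median of 3.16 FPKM, against 2.54 to 3.50 FPKM with a median of 3.03 FPKM in akr7a3+/+ eyes. The akr7a3-/- range lay inside that of the akr7a3+/+ eyes. The means were 3.19 ± 0.276 FPKM in akr7a3-/- eyes and 3.06 ± 0.418 FPKM in akr7a3+/+ eyes. For sirt1 the log2 fold change was 0.056 (95% interval -0.14 to 0.25) and the adjusted p by limma 0.748. SIRT6 in mammals acts on histone H3 and takes part in DNA repair. The gene sirt6 (ENSDARG00000102963) kept within 3.90 to 4.28 FPKM in akr7a3-/- eyes, against 3.65 to 5.11 FPKM in akr7a3+/+ eyes, where eyes 4, 6 and 7 lay above and eyes 2 and 3 below every akr7a3-/- eye. Its log2 fold change was -0.079 (95% interval -0.27 to 0.11), with an adjusted p of 0.621 by limma.

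The order of the mean levels in FPKM was the same in both genotypes: nmnat2, nampta, sirt2, namptb, sirt5, sirt6, sirt1, NMNAT3, sirt3 and nmnat1. The first 3 genes did not separate from their neighbours. The level of nmnat2 was above that of nampta in 8 of 12 eyes, 5 of them akr7a3-/- and 3 akr7a3+/+, and nampta was above sirt2 in 7 of 12 eyes, 2 of them akr7a3-/- and 5 akr7a3+/+. After them came a clear step, since sirt2 was above namptb in all 12 eyes with ranges that did not overlap. The same held for sirt5 over sirt6, for sirt6 over sirt1 and for sirt3 over nmnat1. The place of nmnat1 carries the limit on shared reads given above. The neighbours namptb and sirt5, sirt1 and NMNAT3, and NMNAT3 and sirt3 kept their order in 10 of 12 eyes each, with overlapping ranges. One salvage enzyme of each step, nampta and nmnat2, thus stood at the top of the order beside sirt2, and the sirtuins of nucleus and mitochondria stood below them.

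The eyes of a genotype also differed in how closely they repeated each other, and this sets how small a difference can be bounded. The coefficient of variation (CV, the SD as a percentage of the mean) was lowest for sirt2 in akr7a3+/+ eyes, at 3.64%, and for sirt6 in akr7a3-/- eyes, at 3.74%. The spread of sirt6 in akr7a3-/- eyes was below the 7.55% that counting its 141 to 240 reads per eye would give alone, and in akr7a3+/+ eyes it was 14.9% where counting gave 7.34%. For nmnat1 the CV was 31.9% in akr7a3-/- eyes and 35.9% in akr7a3+/+ eyes, and counting alone gave 27.6% in akr7a3-/- eyes and 23.9% in akr7a3+/+ eyes. In namptb the spread went far beyond counting in akr7a3+/+ eyes: the CV was 10.1% in akr7a3-/- eyes and 31.2% in akr7a3+/+ eyes, where counting gave 4.33% in akr7a3-/- eyes and 4.23% in akr7a3+/+ eyes. The copy nampta varied alike in both genotypes, with a CV of 13.3% in akr7a3-/- eyes and 15.3% in akr7a3+/+ eyes where counting gave 3.07% in akr7a3-/- eyes and 3.00% in akr7a3+/+ eyes. Counting here covers the sampling of reads only, since no molecular identifiers, which would tell repeated copies of a fragment apart, are named for these libraries.

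**Figure D4:**
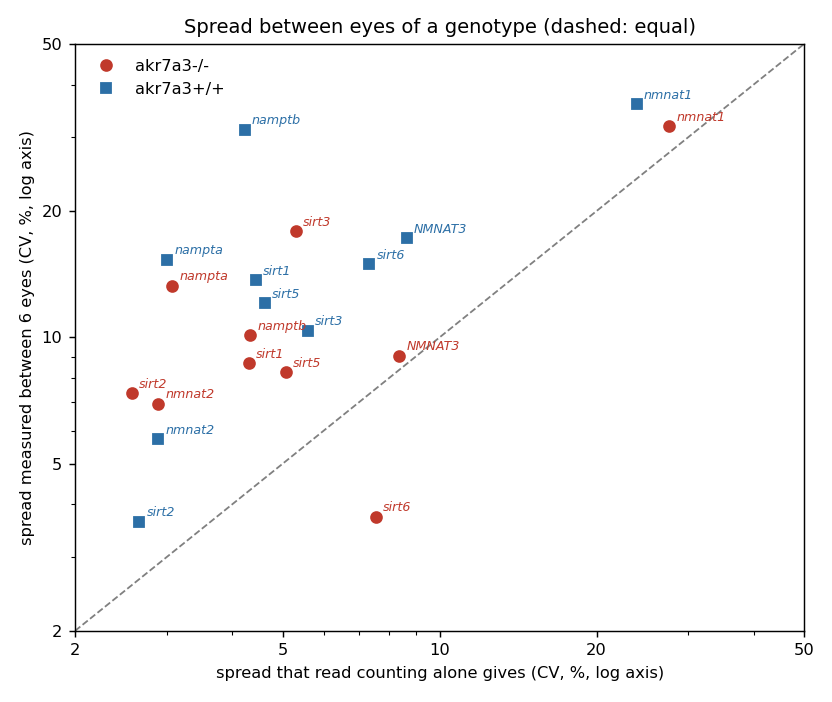
Measured spread between 6 eyes (y axis, CV in percent) against the spread that read counting alone gives (x axis, CV in percent), both on log axes, for each gene in akr7a3-/- eyes (red circles) and akr7a3+/+ eyes (blue squares). On the dashed line both are equal; namptb in akr7a3+/+ eyes lies far above it at 31.2%, nmnat1 lies close to it in both genotypes, and only sirt6 in akr7a3-/- eyes lies below it.

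The rest of NAD metabolism was followed with lists of genes taken by name. Of the genes of other NAD synthesis (the kynurenine route from tryptophan, nicotinic acid and nicotinamide riboside use, and the NAD kinases), 15 of 20 names were listed, in 16 rows, and 12 rows were tested. Of these, 1 was higher and 0 were lower in akr7a3-/- eyes (8.33%, beside 11.5% of all genes tested), and the median log2 fold change was 0.059. The one that rose was nadkb (ENSDARG00000060362), a gene of NAD kinase, which adds a phosphate to NAD to make NADP. It had 14.8, 15.4 and 16.3 FPKM as its lowest, median and highest value in akr7a3-/- eyes, against 8.10, 11.5 and 12.4 FPKM in akr7a3+/+ eyes. The genotypes did not overlap for nadkb. Its log2 fold change was 0.49 (95% interval 0.29 to 0.68), with an adjusted p of 0.00401 by limma and 0.00346 by voom, and it was past the threshold in 19 of 21 alternatives. The 2 exceptions both use only eyes 1, 4 and 7 of each genotype. The lowest estimate of the list was in nadka (ENSDARG00000098313), another NAD kinase gene, at 3.75 ± 0.780 FPKM in akr7a3-/- eyes and 4.62 ± 0.970 FPKM in akr7a3+/+ eyes. Its log2 fold change was -0.27 (95% interval -0.57 to 0.035), with an adjusted p of 0.250 by limma. Another row also named nadka (ENSDARG00000006577) had -0.15 with an adjusted p of 0.398 by limma. The NAD kinase gene nadk2 had -0.0082 with an adjusted p of 0.966 by limma.

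The list of NAD consumers other than the 9 covers parp1 to parp4, tankyrases, the axon degeneration enzyme Sarm1 and the other sirtuins. Here parp1 to parp4 belong to the poly-ADP-ribose polymerase family. Of its names 9 of 13 were listed, in 10 rows. By limma 0 of the 10 rows tested were called, and by voom 0, where each called 11.5% of all genes tested. At an unadjusted p under 0.05 in limma 3 of the 10 passed, where 26.2% of all genes tested passed. The median log2 fold change of the 10 rows was 0.081. Both rows named sirt7 are among the 10, and the reference gives one of them (ENSDARG00000040713) the name RBBP9, which is not a sirtuin. Without that row 0 of 9 were called by limma and the median was 0.11. The extremes among the 10 rows were parp1, which makes poly-ADP-ribose at DNA breaks, with a log2 fold change of 0.23 and an adjusted p of 0.176 by limma, and sirt4, a mitochondrial sirtuin, with -0.17 and 0.352. The gene parp2, of a DNA repair enzyme of the same family, was chosen after its values were seen. Its genotypes did not overlap, as in 6.62% of all genes tested. It had 6.14 to 6.84 FPKM in akr7a3-/- eyes and 5.42 to 5.94 FPKM in akr7a3+/+ eyes. Its log2 fold change was 0.16, with an adjusted p of 0.0721 by limma.

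The list does not hold the whole poly-ADP-ribose polymerase family, and 9 further rows with such names were looked up after values were seen. Of these, 2 of 9 tested were called higher in akr7a3-/- eyes and 0 lower by limma, where 11.5% of all genes tested were called. The rows of parp6a, parp8, parp9, parp11, parp12a, parp12b and parp16 were not called. The gene parp6b (ENSDARG00000070473) had 15.6, 16.0 and 17.4 FPKM as its lowest, median and highest value in akr7a3-/- eyes, against 3.96, 5.73 and 7.20 FPKM in akr7a3+/+ eyes. The genotypes of parp6b did not overlap, and its log2 fold change was 1.46 (95% interval 1.20 to 1.71), with an adjusted p of 1.19e-05 by limma. For parp6a, which its name marks as the other copy, the means were 10.2 ± 0.650 FPKM in akr7a3-/- eyes and 9.30 ± 1.20 FPKM in akr7a3+/+ eyes. Its log2 fold change was 0.14 (95% interval -0.041 to 0.32), with an adjusted p of 0.322 by limma. The gene tiparp (ENSDARG00000061841) had 19.4 to 28.7 FPKM in akr7a3-/- eyes and 14.1 to 20.6 FPKM in akr7a3+/+ eyes, which overlapped, with a log2 fold change of 0.47 and an adjusted p of 0.0148 by limma.

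Of the genes of NAD transport and of the breakdown of NAD and its precursors, 16 of 20 names were listed and 14 rows were tested. Of these rows, 0 were higher and 1 was lower in akr7a3-/- eyes (7.14%, beside 11.5% of all genes tested), with a median log2 fold change of -0.098. The one that fell was nnt2 (ENSDARG00000092522), whose name marks it as a copy of the gene of nicotinamide nucleotide transhydrogenase, the mitochondrial enzyme that passes electrons between NADH and NADP. It had 3.79, 4.53 and 5.58 FPKM as its lowest, median and highest value in akr7a3-/- eyes, against 4.55, 7.21 and 8.24 FPKM in akr7a3+/+ eyes. The genotypes overlapped only through akr7a3+/+ eye 6, at 4.55 FPKM. The log2 fold change of nnt2 was -0.53 (95% interval -0.81 to -0.26), with an adjusted p of 0.0178 by limma and 0.0220 by voom, and 19 of 21 alternatives kept it past the threshold, with the same exceptions as for nadkb. The far more abundant nnt had 141 ± 14.0 FPKM in akr7a3-/- eyes and 135 ± 16.7 FPKM in akr7a3+/+ eyes, and how reads shared by the 2 copies were counted is not given in the sources used here. The extremes of the list were pnp5b, a purine nucleoside phosphorylase gene, with a log2 fold change of -0.60 and an adjusted p of 0.0600 by limma, and enpp1, which codes for an enzyme that cleaves nucleotides outside the cell, with 0.30 and 0.178.

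Because Nampt is tied to the circadian clock in mammals, the core clock genes of the same eyes were set beside the 9 genes. Of 23 clock genes tested, 12 were higher and 6 lower in akr7a3-/- eyes (78.3%, beside 11.5% of all genes tested). This list was chosen with earlier results of these data known, so its share is a description only. Their median size was 0.90 on the log2 scale, where the 9 NAD salvage and sirtuin genes had 0 calls and a median size of 0.11. The times at which the eyes were taken are not given in the sources used here. A difference in time of collection therefore cannot be told apart from one of genotype. Whether the clock controls nampta or namptb in these eyes was not tested.

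**Figure D5:**
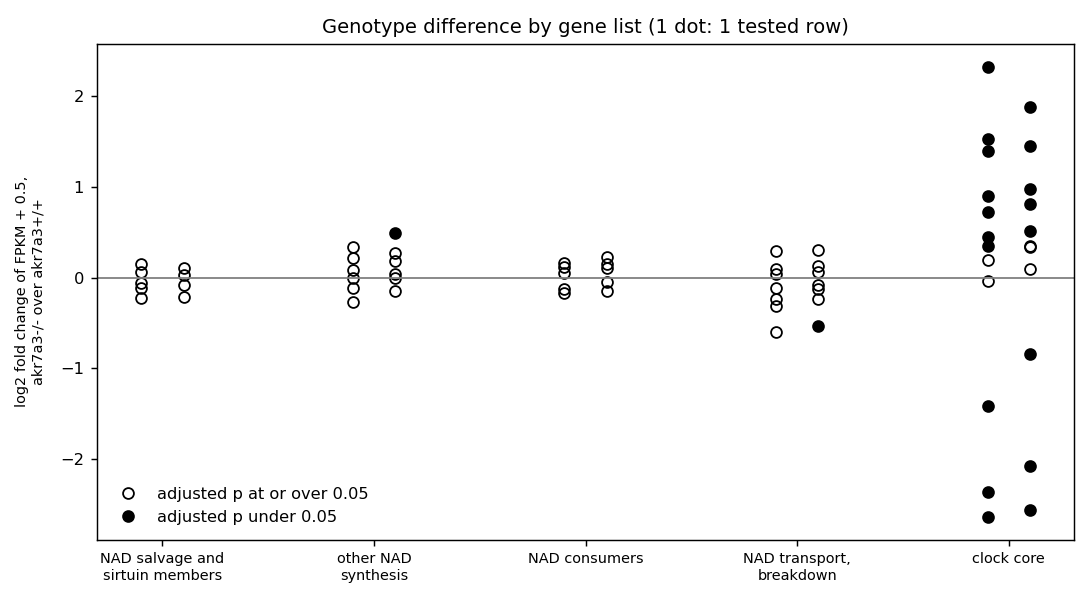
Log2 fold change of FPKM + 0.5 of akr7a3-/- over akr7a3+/+ eyes (y axis) for each tested row of the 9 genes, of the other NAD lists and of the core clock genes, spread sideways for visibility; filled dots have an adjusted p under 0.05. None of the 9 dots at the left is filled, 1 and 1 are filled in the lists of other NAD synthesis and of NAD transport and breakdown, and 18 of 23 are filled for the clock.

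Markers of the cell types of the eye were followed with lists, in which no listed gene was at 0 in every eye. A sum of FPKM is weighted to the most abundant genes of its list and measures RNA, so it does not give numbers of cells. The summed FPKM of 15 rod and cone genes was 36522 to 43811 in akr7a3-/- eyes and 22906 to 36157 in akr7a3+/+ eyes, and that of 7 Mueller glia genes was 1092 to 1348 in akr7a3-/- eyes and 931 to 1086 in akr7a3+/+ eyes, so neither overlapped between the genotypes. Over all genes tested, 11.5% were called in either direction by limma, and 6.62% had genotypes that did not overlap. These are shares of single genes and give no rate for sums over a list. Of the tested rows, 3 of 15 rod and cone genes were higher and 4 lower, and 1 of 6 Mueller glia genes was higher. Among the 4 lower were arr3a, at 340 ± 75.8 FPKM in akr7a3-/- eyes and 1480 ± 173 FPKM in akr7a3+/+ eyes, and sagb, at 208 ± 39.1 and 569 ± 178 FPKM. Among the 3 higher was opn1lw1, at 1374 ± 205 FPKM in akr7a3-/- eyes and 718 ± 97.2 FPKM in akr7a3+/+ eyes. For muscle, 8 of 17 were lower, with sums of 791 to 1090 in akr7a3-/- eyes and 921 to 2129 in akr7a3+/+ eyes. For red blood cells, 1 of 8 was higher, with sums of 870 to 1720 in akr7a3-/- eyes and 139 to 1392 in akr7a3+/+ eyes. The lens sums were 229 to 6126 in akr7a3-/- eyes, lowest in eye 1, and 2742 to 5270 in akr7a3+/+ eyes. Of 11 lens rows tested, 0 were called by limma or voom, and 2 had an unadjusted p under 0.05 in limma. The median log2 fold change of these 11 lens rows was -1.25, beside -0.0080 over all genes tested. For inner retinal neurons, 0 of 13 were called by limma or voom, with 2 at an unadjusted p under 0.05 in limma, and for pigment cells 1 of 7 was lower. The part of these differences and of those of the clock genes in the values of nadkb, nnt2, parp6b, tiparp and sirt5 was not tested.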

How the data were processed

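RNA libraries of 6 akr7a3-/- and 6 akr7a3+/+ adult eyes were analysed, each assigned to its genotype by its label. The authors mapped polyadenylated, strand-specific reads to GRCz11 with HISAT2, counted them with featureCounts 2.0.3 and deposited the expression of each gene in each eye as FPKM; the annotation release and the treatment of reads shared by gene copies are not given in the sources used here.

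A gene was tested if 6 or more of the 12 eyes reached 0.5 FPKM. The test was limma 3.58.1 in R 4.3.3, applied to log2(FPKM + 0.5) with the genotype as the one factor and a trended variance, followed by Benjamini-Hochberg adjustment across every gene tested. Intervals are 95% and unadjusted. Whole reads were recovered from the FPKM steps for 25419 of 25432 genes, within 0.02 reads, and were used for depth, for the spread from counting and for voom. The steps were tested on simulated data. Eyes of a genotype differed beyond sampling noise in all 30 pairs (lowest chi-square per degree of freedom, 24.5).

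The members and the lists were chosen with earlier results of these data known. The genes named are the members, NMNAT3, akr7a3 and, in each other NAD list, the called genes and those with the largest and smallest log2 fold change. Others were named after their values were seen: parp2, the further poly-ADP-ribose polymerase rows with tiparp, the other nadka row, nadk2, nnt, arr3a, sagb, opn1lw1 and the near-copy rows. Genes most like a called member were to be named too, and no member was called. The gene table of GRCz12tu served only for names and shared chromosomes. Alternatives were other pseudocounts, filters and scalings, voom, a replicate block and leaving out each eye. The study's larvae and livers were not used here.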

Additional observations from a re-analysis of the deposited data

Results flagged for a closer look

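In 28 groups of 6 eyes checked for a single eye far from the others, 1 stood out, where chance marks about 1 in 20. The groups covered some of the genes followed here and the log2 difference of nampta minus namptb, each in both genotypes. The log2 difference of nampta minus namptb was 1.72 in akr7a3-/- eye 5, where the next highest akr7a3-/- eye had 1.12, a gap of 0.863 of the group's whole range. Among akr7a3+/+ eyes the highest value was 1.55, in eye 3, so that eye 5 lay just above the range of both genotypes. Without akr7a3-/- eye 5 the difference between the genotypes was -0.057, against 0.053 with all eyes.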

How the results depend on the processing

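The number of NAD salvage and sirtuin genes called was 0 under all 21 alternatives, which were pseudocounts of 0.1 and 1, no filter, at least 1 FPKM in at least 6 eyes, median-of-ratios scaling, quantile normalization, voom, the replicate block, eyes 1, 4 and 7 without a block (chosen after seeing the data) and each eye left out. The filter of 1 FPKM left nmnat1 untested. With the replicate block 1 gene was called in all, and the same eyes without the block gave 126. A count of 0 among the members was thus close to certain in these settings and adds little. Near 0, directions turned: without akr7a3+/+ eye 1 namptb had a log2 fold change of 0.012, and without akr7a3-/- eye 9 nmnat2 had -0.0023, where single eyes left out gave -0.19 to 0.012 for namptb and -0.0023 to 0.056 for nmnat2. Other small estimates, none of them called, also moved by over 1.5 times with single eyes left out: nampta from -0.13 to -0.016, NMNAT3 from 0.0088 to 0.13, nmnat1 from -0.29 to -0.14, sirt1 from 0.013 to 0.092, sirt3 from 0.086 to 0.19 and sirt6 from -0.13 to -0.039. The difference of nampta against namptb between the genotypes was -0.057 without akr7a3-/- eye 5, -0.037 without akr7a3+/+ eye 1 and -0.028 without akr7a3+/+ eye 4, and ran from -0.057 to 0.14 over the left-out eyes. Leaving out single eyes gave 1518 to 2029 called genes in all, 2 to 3 called other NAD genes, and log2 fold changes of akr7a3 from -1.65 to -1.50, where all eyes gave -2.23 and -1.16 with pseudocounts of 0.1 and 1 and -2.55 by voom, each past the threshold. The count over all genes reached 2317 at most.

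Both genotypes have eyes numbered 1, 4 and 7. The deviations of same-numbered eyes correlated at 0.085, -0.20 and 0.069. The same-numbered akr7a3+/+ eye correlated best with akr7a3-/- eye 1, and not with akr7a3-/- eyes 4 and 7. The numbers were not read as pairs, though so few numbers cannot settle whether the eyes were paired. With the replicate block on these 6 eyes, 1 gene was called in all and 0 of the other NAD genes, and the log2 fold change of akr7a3 was -1.38 with an adjusted p of 0.138 by limma. The block gave nadkb 0.44 with an adjusted p of 0.217 and nnt2 -0.67 with 0.258. The same 6 eyes without the block gave 126 called genes in all and 0 of the other NAD genes, with adjusted p-values of 0.128 for nadkb and 0.133 for nnt2, while akr7a3 was past the threshold there (-1.38, adjusted p of 0.0464 by limma). With 9 to 24 reads per eye, nmnat1 had the fewest reads of the set. Neither protein nor promoter sequences were analysed here, so the planned search of promoters for clock motifs was not run.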
